A study of Homo sapiens with 14 samples.

Results

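This comparison set PANC-1 cells given TGFb1 together with acriflavine against cells given neither, to show what of the TGFb1 response remained under acriflavine and what was new relative to unstimulated cells. PANC-1 is an established line from a human pancreatic ductal carcinoma. The members were chosen by their labels: 3 arrays of TGFb1 plus acriflavine (called the combined treatment here) and 4 control arrays, 7 of the 14 arrays of the series. TGFb1 was given at 5 ng/ml and acriflavine at 2.5 µM, both for 48 h, to cells held before that for 24 h in 1% serum. The control cells went through the same low-serum step and received neither agent. The 4 arrays of TGFb1 alone, from the same starved line at the same dose and time, served as the reference for the TGFb1 response. The 3 arrays given TGFb1 at 5 ng/ml with valproate at 2 mM entered the estimate of the spread and the brightness limit. Cells given only acriflavine were not analysed here, and what acriflavine does by itself cannot be told apart from what it does with TGFb1. The labels call the replicates biological without saying what was separate, and p-values measure the spread between these samples.

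TGFb1 is a cytokine that binds a pair of receptor kinases, which phosphorylate SMAD proteins that then enter the nucleus and switch genes on and off. In epithelial carcinoma cells it lowers cell-cell adhesion proteins such as E-cadherin and raises matrix, cytoskeletal and protease genes, a change known as epithelial-mesenchymal transition. Acriflavine, an old antiseptic made of acridine dyes, inserts into DNA and is known to keep the subunits of hypoxia-inducible factors apart. ATF4, which recurs below, is a transcription factor made when translation is restrained by amino acid shortage or other stress, and it drives amino acid synthesis, amino acid import and the charging of tRNAs.

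Values are log2 intensities, 1 probe set a gene, and a difference is that of 2 group means in log2 units with its standard error (SE) from a limma fit, so that 1 unit is 2-fold. Array medians of the 7 arrays lay between 7.16 and 7.21. The first principal component of the 7 arrays held 81.0% of the variance and parted the groups, and the second, with 12.5%, parted control replicate 4 from the other 3 controls. The SD of an array's deviations from its group mean was 0.250 for control replicate 4 and 0.0665 to 0.151 for the other 6 arrays. TGFb1 replicates 4 and 2, outside these 7 arrays but part of the fit's estimate of the spread, had 0.375 and 0.256. The ductal keratins KRT8 and KRT18 were bright in both groups. KRT8 was at 13.82 ± 0.22 (SD, n = 4) in controls and 13.82 ± 0.0814 (SD, n = 3) under the combined treatment, and KRT18 measured 14.05, 14.15, 13.96 and 14.31 on the control arrays and 13.78, 13.75 and 13.80 under the combined treatment. Of the 14 ductal markers on the array, 8 reached the brightness limit of 6.89 used for testing. Among these 8, KRT7 and FOXA2 were higher and S100P was lower than control, at -3.35 ± 0.49. The limit was reached by 1 of 9 acinar, 2 of 7 endocrine, 1 of 8 endothelial, 2 of 8 leukocyte, 3 of 8 hepatocyte and 5 of 12 fibroblast markers. The mean level of the ductal list was 8.74 to 8.93 in controls and 8.74 to 8.82 under the combined treatment, and that of the fibroblast list was 5.93 to 6.03 and 5.89 to 6.01. In bulk RNA, fewer cells of a kind or phase and less RNA per cell cannot be told apart.

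Against control, 2839 of 10877 tested genes were higher and 2354 were lower after the combined treatment (limma, Benjamini-Hochberg adjusted p under 0.05), that is 26.1% and 21.6%. At least 2-fold differences were seen in 382 of the higher and 410 of the lower genes. TGFb1 alone differed from control in fewer genes, 913 higher (8.39%) and 1084 lower (9.97%). With the replicate number as a block these were 1432 and 1716, although pairing of these 2 groups by number was not settled. Without TGFb1 replicate 4, 1832 genes were lower. Set against TGFb1 alone, the combined treatment had 2660 genes higher (24.5%) and 2078 lower (19.1%), the contrast that tests the addition of acriflavine. The 3 comparisons share arrays, so their values are given side by side and no overlap is read from them. The median difference from control over all tested genes was 0.04 for the combined treatment and 0.00 for TGFb1 alone, and list medians below are to be read against these. Counts of list members that differ from control under the combined treatment are to be read against the 26.1% higher and 21.6% lower of all genes. Under an alternative the all-gene counts moved too, and list counts given for it are to be read against those. Without the replicates 4 of control and TGFb1, 3548 genes were higher and 2872 lower. The lists were drawn up with earlier results of these data known, so their counts are a description and no test. A gene's value is that of its brightest probe set, and the mean over all its probe sets can be smaller. That mean gave 1.51 for COL4A1, 1.46 for IL11, 0.39 for ADAM19, -0.63 for TGFBR1, -2.31 for CCND2, 0.92 for CCND3, -1.35 for PRDM16, -2.43 for ULBP1, 0.90 for PFKFB4 and -0.93 for HK2, each still past the threshold and over 1.5 times smaller than the value below. Some genes had 1 group mean under the brightness limit, where a level above background is not shown. Among genes given with values these were, in the control, ACTA2, ADAM19, COL4A1, COL4A2, COL5A1, FN1, IL11, KRT4, PFKFB4, PRSS3 and ST14, and under the combined treatment ANK2, BCAT1, CCND2, COL3A1, CTH, HRK, PRDM16, TGFBR3 and ULBP1. NEDD9 was under it in both. The size of their differences and their order among the largest are uncertain.

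**Figure D1:**
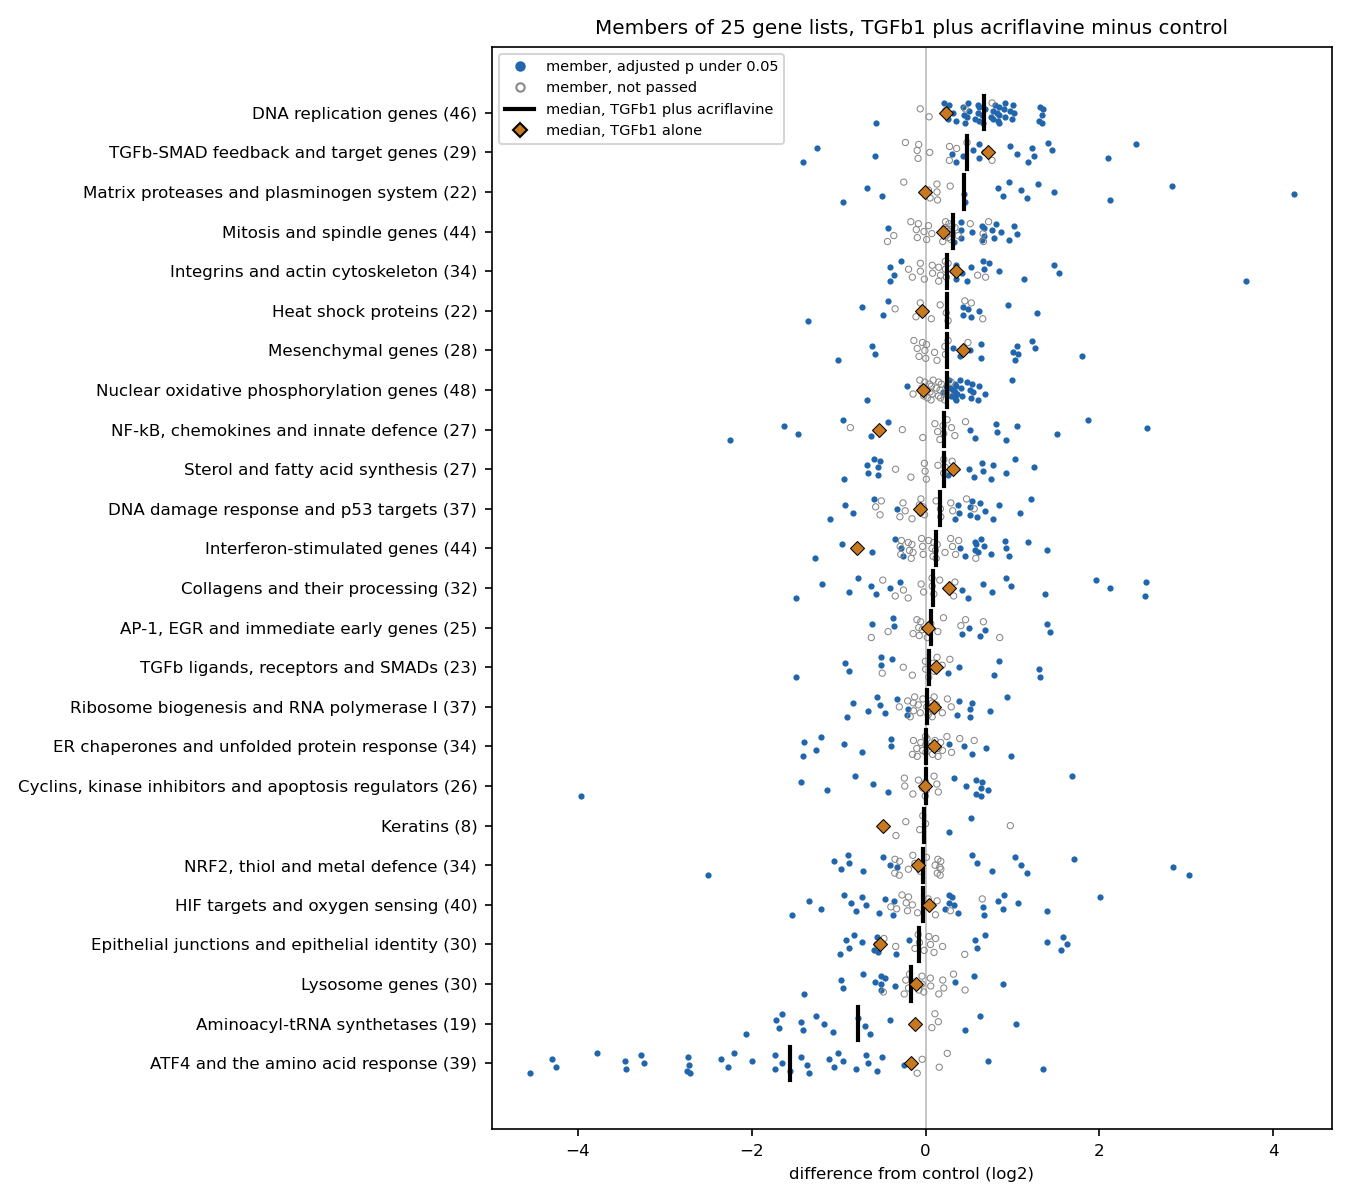
Differences from control (log2, x axis) for the tested members of 25 gene lists (y axis, number of tested members in brackets); filled points passed an adjusted p of 0.05, open points did not, the black bar is the list median for TGFb1 plus acriflavine and the diamond that for TGFb1 alone. The ATF4 list has the lowest median, -1.56, and the DNA replication list the highest, 0.67, while the interferon and epithelial lists, low with TGFb1 alone, lie near 0.

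Some genes that were high with TGFb1 alone were also above control under the combined treatment. Without cells given only acriflavine, a remaining TGFb1 effect and an effect of acriflavine itself cannot be told apart. TUBA4A, an alpha-tubulin, was among the largest rises of the whole comparison and was high with TGFb1 alone too. COL5A1, IL11, NOG, CDH2 and NT5E were also above control under both treatments. TUBA4A measured 9.26, 9.29, 9.11 and 9.25 on the 4 control arrays and 12.94, 12.93 and 12.87 on the 3 arrays of the combined treatment. The groups were far apart, with a difference of 3.68 ± 0.10 (SE), limma adjusted p = 6.35e-11, and it lay above the 12.39 ± 0.16 (SD, n = 4) of TGFb1 alone as well, by 0.53 ± 0.10 (SE), limma adjusted p = 0.000853. COL4A1 and COL4A2, the 2 main chains of basement membrane collagen IV, were named for their likeness to TGFb1 alone, so that likeness is a description. COL4A1 measured 6.59, 6.20, 6.96 and 6.92 on the 4 control arrays and 9.22, 9.09 and 9.32 on the 3 arrays of the combined treatment, a difference of 2.54 ± 0.21 (SE), limma adjusted p = 7.25e-07, and TGFb1 alone gave 9.23 ± 0.33 (SD, n = 4). COL4A2 rose by 2.12 ± 0.16 (adjusted p = 4.56e-07) beside 2.06 ± 0.15 with TGFb1 alone, and COL5A1, a fibrillar collagen V chain, rose by 2.53 ± 0.13 beside 2.69 ± 0.12 (adjusted p = 1.23e-08 and 3.87e-09). IL11, a cytokine long known as a TGFb target, measured 7.26, 6.77, 7.12 and 6.0 on the 4 control arrays and 9.19, 9.13 and 9.29 on the 3 arrays of the combined treatment, with every treated array above every control. Its difference was 2.42 ± 0.30 (SE), limma adjusted p = 2.45e-05, and TGFb1 alone gave 9.02 ± 0.57 (SD, n = 4). NOG, which encodes the BMP antagonist noggin, rose by 2.10 ± 0.21 (adjusted p = 4.42e-06) beside 2.47 ± 0.20 with TGFb1 alone. CDH2, the N-cadherin gene, rose by 0.51 ± 0.0792 (adjusted p = 0.000156) beside 0.48 ± 0.0733, and NT5E, the surface enzyme CD73, by 1.26 ± 0.11 (adjusted p = 9.74e-07) beside 1.17 ± 0.0986.

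Genes that changed at least 2-fold with the smallest difference between the combined treatment and TGFb1 alone were taken as a description, since the choice fixes that likeness. The rises were SIM2, PROC, COL4A1, GAL, INAVA and COL4A2, from 1.18 for the neuropeptide galanin (GAL) to 2.54 for COL4A1. The other of 2 INAVA probe sets at the brightness limit was at 0.09 and was not called. SIM2, a developmental transcription factor of the bHLH-PAS family, measured 6.87, 6.98, 7.14 and 7.09 on the 4 control arrays and 8.57, 8.56 and 8.52 on the 3 arrays of the combined treatment, and its mean with TGFb1 alone was 8.55. The falls were MYO5C, FYCO1, FAT4, TSPAN1, ARNT2 and CCN5, from -1.77 for MYO5C, a myosin motor of epithelial secretory traffic, to -1.09 for FYCO1. The other of 2 FYCO1 probe sets at the brightness limit was at -0.08 and was not called. Of 3 such probe sets of MYO5C, which ranged from -1.77 to -0.25, 2 were called lower. ARNT2, a partner protein of bHLH-PAS factors, measured 9.22, 9.13, 9.27 and 9.88 on the 4 control arrays and 8.06, 7.91 and 7.96 on the 3 arrays of the combined treatment, and its mean with TGFb1 alone was 7.86.

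The list of TGFb-SMAD feedback and target genes lay between control and TGFb1 alone. Of 29 tested members 16 were higher than control and 3 lower, with a median of 0.48 against 0.04 over all genes, and with TGFb1 alone 18 were higher and 0 lower at a median of 0.72. The mean level of the list was 9.61 to 9.78 on the control arrays, 10.18 to 10.23 under the combined treatment and 10.53 to 10.74 with TGFb1 alone, so the 3 groups did not overlap. Against TGFb1 alone 14 members were lower, and 3 were higher (BAMBI, TSC22D1 and LIF; 5 without TGFb1 replicate 4 and 2 without TGFb1 replicate 1 or 3 or combined-treatment replicate 3). PMEPA1, a membrane protein that dampens SMAD signalling, measured 11.01, 11.14, 11.08 and 11.17 on the 4 control arrays and 12.38, 12.31 and 12.34 on the 3 arrays of the combined treatment, a rise of 1.25 ± 0.0759 (SE), limma adjusted p = 7.65e-08. TGFb1 alone gave 12.99 ± 0.0994 (SD, n = 4), and the combined treatment was below that, at -0.65 ± 0.0759 (SE), limma adjusted p = 1.55e-05. SMAD7, the inhibitory SMAD, rose by 0.61 ± 0.12 (adjusted p = 0.000848) beside 1.31 ± 0.11. NEDD9, a docking protein of focal adhesions, rose by 1.46 ± 0.15 (adjusted p = 5.31e-06) beside 2.63 ± 0.14. The sheddase ADAM19 measured 5.99, 6.29, 6.27 and 6.82 on the 4 control arrays and 7.82, 7.77 and 7.68 on the 3 arrays of the combined treatment, so every treated array lay above every control, with a difference of 1.41 ± 0.23 (SE), limma adjusted p = 0.000211. That was far from the 10.25 ± 0.50 (SD, n = 4) of TGFb1 alone, and the difference from it was -2.50 ± 0.23 (SE), limma adjusted p = 1.88e-06. The 3 that were lower than control were SKI, a SMAD co-repressor, at -1.41 ± 0.17 (adjusted p = 1.83e-05) beside 0.51 ± 0.16 with TGFb1 alone, WNT7B, a Wnt ligand, at -1.25 ± 0.17, and TGIF1, another co-repressor, at -0.58 ± 0.096 (adjusted p = 5e-05 and 0.000255). HMGA2, a chromatin protein linked to SNAI1 induction, was at 0.05 ± 0.11 (adjusted p = 0.757) beside 0.66 ± 0.10. Its 4 probe sets at the brightness limit disagreed, from -0.11 to 1.22 against control, and 1 of them was called higher.

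Of 23 tested ligands, receptors and processing enzymes of the pathway 6 were higher and 6 lower (26.1% each, near the 26.1% and 21.6% of all genes), with a median of 0.04. TGFBR1, the type I receptor kinase, measured 9.89, 9.97, 10.06 and 10.05 on the 4 control arrays and 8.48, 8.46 and 8.56 on the 3 arrays of the combined treatment. Every treated array was below every control, at a difference of -1.49 ± 0.13 (SE), limma adjusted p = 1.25e-06, and TGFb1 alone stood at 10.02 ± 0.31 (SD, n = 4). TGFBR2, the type II receptor, differed from control by 0.04 ± 0.16 (adjusted p = 0.876), and SMAD2 by 0.00 ± 0.11 (adjusted p = 0.991), although its probe sets disagreed and their mean gave -0.80 (adjusted p = 0.000146). TGFB1 itself rose by 1.30 ± 0.36 (adjusted p = 0.00823), where control replicate 4 was low at 7.73 and the other controls read 9.06, 9.06 and 9.01. FURIN, the protease that cleaves the TGFb precursor, rose by 1.31 ± 0.11 (adjusted p = 8.29e-07) beside 1.09 ± 0.10. The co-receptor TGFBR3 was lower, at -0.93 ± 0.27 (adjusted p = 0.013), or -0.62 without control replicate 4.

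Epithelial genes were not uniformly back at control level. Of 30 tested epithelial junction and identity genes 7 were higher and 10 lower than control (23.3% and 33.3%, beside 26.1% and 21.6% of all genes). The share of higher genes was thus near that of all genes. The median was -0.08, whereas TGFb1 alone had 17 lower (median -0.53). Against TGFb1 alone 12 were higher and 4 lower (TJP1, DSC2, DSG2 and CTNNA1; 6 without TGFb1 replicate 4). CDH1, which encodes E-cadherin, measured 8.36, 9.06, 8.59 and 9.91 on the 4 control arrays and 9.57, 9.32 and 9.41 on the 3 arrays of the combined treatment. The treated arrays lay within the wide control range, and the difference of 0.45 ± 0.28 (SE), limma adjusted p = 0.205, did not pass. Without control replicate 4, the highest control, it was 0.76 (adjusted p = 0.00481). TGFb1 alone gave 6.58 ± 0.25 (SD, n = 4), and the combined treatment differed from it by 2.85 ± 0.28 (SE), limma adjusted p = 3.49e-06. Several epithelial genes passed control level. LSR, the receptor that builds tricellular junctions, measured 10.14, 10.37, 10.10 and 10.48 on the 4 control arrays and 11.98, 11.85 and 11.85 on the 3 arrays of the combined treatment, above control by 1.63 ± 0.12 (SE), limma adjusted p = 2.77e-07, and TGFb1 alone gave 9.63 ± 0.19 (SD, n = 4). SPINT1, the inhibitor of matriptase and hepsin, measured 9.62, 9.87, 9.66 and 10.10 on the 4 control arrays and 11.45, 11.31 and 11.37 on the 3 arrays of the combined treatment, above control by 1.56 ± 0.13 (SE), limma adjusted p = 1.07e-06. Its mean with TGFb1 alone was 8.60, so it fell with TGFb1 (-1.21 ± 0.12) and ended above control under the combined treatment. EPCAM, an epithelial adhesion protein, measured 10.41, 10.49, 10.63 and 10.38 on the 4 control arrays and 11.11, 10.99 and 11.11 on the 3 arrays of the combined treatment and rose by 0.59 ± 0.16 (adjusted p = 0.0074). AP1M2, an epithelial clathrin adaptor subunit, and ST14, the protease matriptase, rose by 1.58 ± 0.21 and 1.40 ± 0.13 (adjusted p = 4.31e-05 and 2.46e-06).

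Other junction and identity genes were below control. TJP1, the scaffold ZO-1 of tight junctions, was at -0.99 ± 0.0989 (adjusted p = 4.15e-06) beside -0.18 ± 0.0915 with TGFb1 alone. OCLN, occludin, was at -0.88 ± 0.22 (adjusted p = 0.00521) beside -1.16 ± 0.21, and ELF3, an epithelial ETS factor, at -0.91 ± 0.18 (adjusted p = 0.00108) beside -1.96 ± 0.17. CLDN1, claudin 1, differed by -0.56 ± 0.33 (adjusted p = 0.184) and did not pass. It measured 12.58, 12.89, 12.78 and 13.14 on the 4 control arrays and 12.35, 12.16 and 12.36 under the combined treatment, below every control. It passed with the 2 groups alone (adjusted p = 0.0049) and, at -0.46, without the replicates 4 of control and TGFb1 (adjusted p = 0.0447). Among 8 tested keratins 2 were higher and 0 lower. KRT18 did not pass, but was called lower with the 2 groups alone, at -0.34 (adjusted p = 0.0102). Without the replicates 4 of control and TGFb1 it was called lower too, at -0.28 (adjusted p = 0.0288). KRT7 rose by 0.52 ± 0.19 (adjusted p = 0.036), a call that was lost without any one of control replicates 2, 3 or 4 or combined-treatment replicates 1 or 2 (adjusted p 0.0565 to 0.119). KRT4 rose by 0.27 ± 0.0724 (adjusted p = 0.00797), and the mean of its probe sets gave 0.23 (adjusted p = 0.0735).

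**Figure D2:**
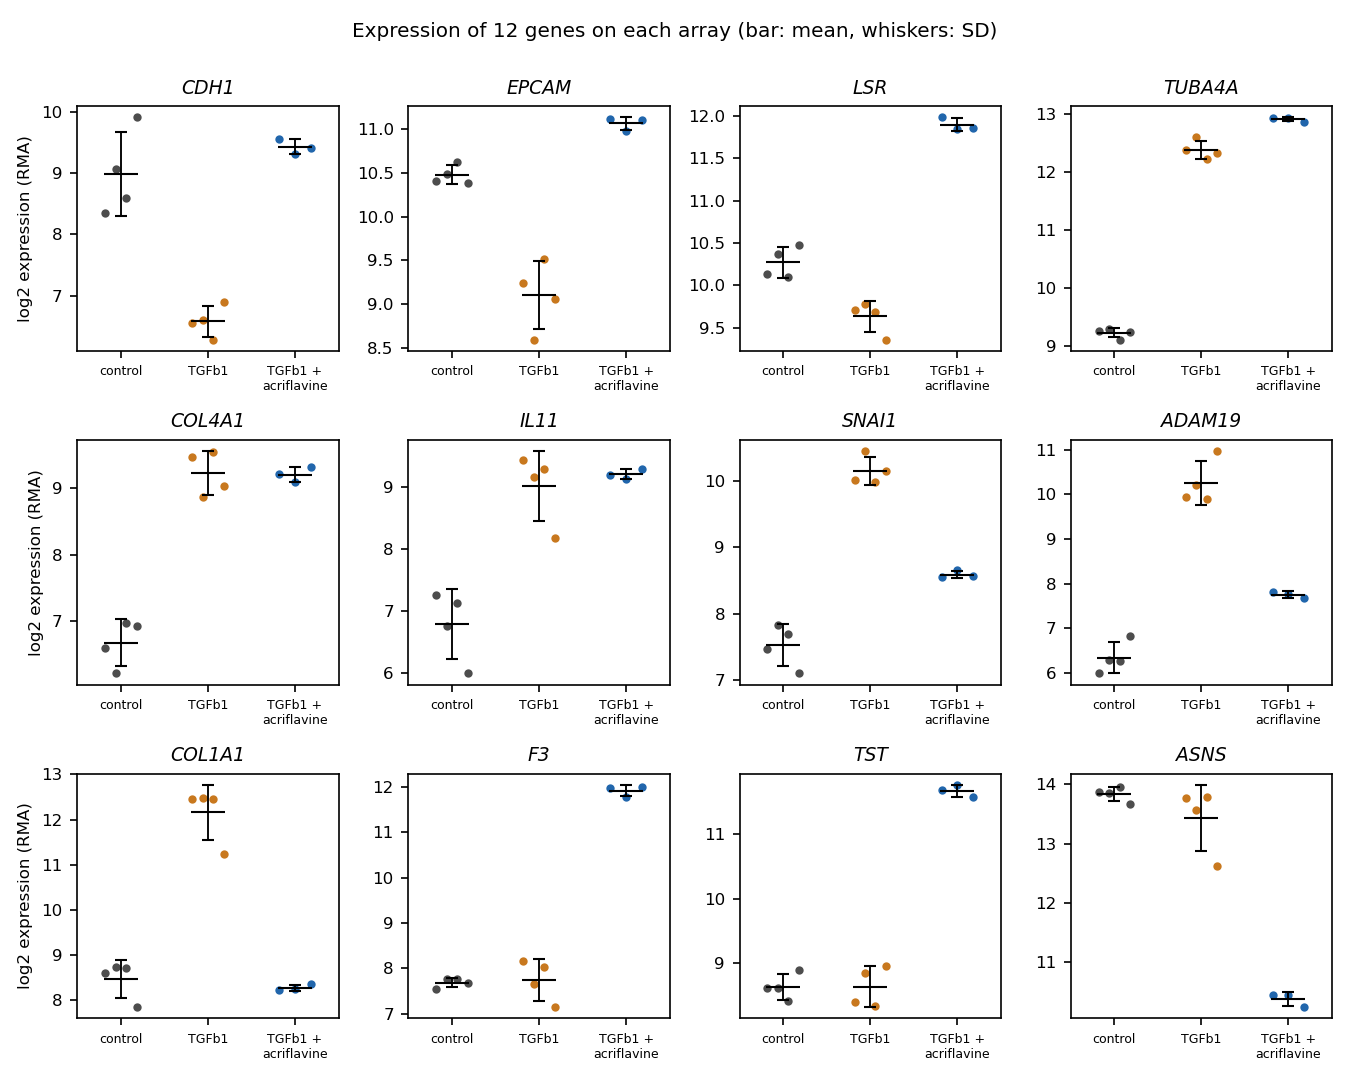
Log2 expression (y axis, its range set per panel) of 12 genes on each array of the control (4), TGFb1 (4) and TGFb1 plus acriflavine (3) groups; points are arrays, the bar is the group mean and the whiskers the SD. COL4A1 and IL11 lie within the range of TGFb1 alone and TUBA4A above it, COL1A1 lies among the controls, SNAI1 and ADAM19 lie between, LSR, F3 and TST lie above both other groups, and ASNS lies below both.

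Mesenchymal genes split by member. Of 28 tested 12 were higher than control and 3 lower (42.9% and 10.7%, beside 26.1% and 21.6% of all genes). The median was 0.24, or 0.43 without control replicate 4, and TGFb1 alone had 14 higher. SNAI1, the repressor that silences E-cadherin, measured 7.47, 7.84, 7.70 and 7.10 on the 4 control arrays and 8.55, 8.65 and 8.57 on the 3 arrays of the combined treatment, still above control by 1.06 ± 0.16 (SE), limma adjusted p = 0.000109. TGFb1 alone gave 10.15 ± 0.21 (SD, n = 4), and the difference from it was -1.56 ± 0.16 (SE), limma adjusted p = 4.47e-06. ZEB1, another repressor of this kind, was lower, at -0.59 ± 0.17 (adjusted p = 0.0109), as were the matrix protein SPARC, at -0.61 ± 0.22, and the integrin chain ITGAV, at -1.0 ± 0.17 (adjusted p = 0.0327 and 0.000281). The SPARC call was lost without control replicate 2 or 4 or any 1 array of the combined treatment (adjusted p 0.0506 to 0.0898). THBS1, thrombospondin 1, measured 9.81, 10.58, 10.02 and 10.96 on the 4 control arrays and 12.20, 12.15 and 12.07 on the 3 arrays of the combined treatment, a rise of 1.80 ± 0.29 (SE), limma adjusted p = 0.000198. ACTA2, smooth muscle actin, measured 6.69, 6.75, 6.83 and 7.10 on the 4 control arrays and 8.21, 7.96 and 8.02 on the 3 arrays of the combined treatment, a rise of 1.22 ± 0.10 (SE), limma adjusted p = 1.07e-06 although TGFb1 alone left it at 6.79 ± 0.0677 (SD, n = 4). VIM, the intermediate filament vimentin, was bright on every array and differed by 0.01 ± 0.0615 (adjusted p = 0.907). SPOCK1, a matrix proteoglycan, rose with TGFb1 alone by 3.06 ± 0.32 and differed from control by 0.26 ± 0.34 under the combined treatment (adjusted p = 0.566), or by 0.63 (adjusted p = 0.0408) without control replicate 4. FN1, fibronectin, differed by 0.49 ± 0.32 (adjusted p = 0.234), and by 0.66 (adjusted p = 0.000962) without the replicates 4 of control and TGFb1.

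Fibrillar collagen I parted from collagens IV and V. COL1A1 measured 8.61, 8.73, 8.72 and 7.85 on the 4 control arrays and 8.24, 8.24 and 8.35 on the 3 arrays of the combined treatment, so the treated arrays lay above control replicate 4 and below the other 3 controls. The difference was -0.20 ± 0.27 (SE), limma adjusted p = 0.584, against 3.68 ± 0.25 with TGFb1 alone, which stood at 12.16 ± 0.61 (SD, n = 4). Without the replicates 4 of control and TGFb1 the difference was -0.41 (adjusted p = 0.000147). COL3A1, the collagen III chain, measured 7.31, 7.33, 7.39 and 7.01 on the 4 control arrays and 5.63, 5.91 and 5.76 on the 3 arrays of the combined treatment and was below every control, at -1.49 ± 0.13 (SE), limma adjusted p = 1.62e-06, where TGFb1 alone raised it by 0.73 ± 0.12. Of 32 tested collagen and collagen-processing genes 11 were higher and 8 lower (beside 26.1% and 21.6% of all genes), with a median of 0.09, or 0.28 with the mean of the probe sets. COL7A1, the anchoring fibril collagen, rose by 1.97 ± 0.11 (adjusted p = 4.43e-08) beside 2.27 ± 0.10. The prolyl hydroxylase subunit P4HA3 differed by 0.34 ± 0.16 (adjusted p = 0.0903; 0.43 with adjusted p = 0.0377 without control replicate 4), against 2.77 ± 0.14 with TGFb1 alone. COL18A1, a basement membrane collagen that TGFb1 alone left near control (-0.01 ± 0.0653), was lower, at -1.20 ± 0.0706 (adjusted p = 6.4e-08).

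Among 34 tested integrin and actin genes 14 were higher and 4 lower than control (41.2% and 11.8%, beside 26.1% and 21.6% of all genes), at a median of 0.25. The fibronectin receptor subunit ITGA5 rose by 1.14 ± 0.20 (adjusted p = 0.000366) beside 1.64 ± 0.18 with TGFb1 alone. FSCN1, the actin bundler of filopodia, measured 11.55, 11.54, 11.53 and 10.43 on the 4 control arrays and 12.77, 12.72 and 12.73 on the 3 arrays of the combined treatment and rose by 1.48 ± 0.25 (adjusted p = 0.000298). CNN2, calponin 2, rose by 1.53 ± 0.15 (adjusted p = 2.86e-06) beside 0.55 ± 0.14. The 4 lower members were ITGB1, ITGB3, ACTG1 and PXN. ITGB3, the beta chain of a vitronectin receptor, was at -0.40 ± 0.12 (adjusted p = 0.0116) where TGFb1 alone raised it by 1.33 ± 0.11, and the mean of its probe sets gave -0.03 (adjusted p = 0.79).

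The largest rise of the comparison was that of F3, tissue factor, the membrane protein that starts blood coagulation. F3 measured 7.54, 7.76, 7.77 and 7.68 on the 4 control arrays and 11.99, 11.78 and 12.01 on the 3 arrays of the combined treatment, a difference of 4.24 ± 0.19 (SE), limma adjusted p = 7.27e-09, or 18.9-fold. TGFb1 alone stood at 7.74 ± 0.46 (SD, n = 4), and the combined treatment differed from it by 4.18 ± 0.19 (SE), limma adjusted p = 6.48e-09. The list of matrix proteases and plasminogen genes to which it belongs had 12 of 22 tested members higher and 3 lower, with a median of 0.45. The 3 were MMP24, ADAM17 and TFPI, an inhibitor of the tissue factor pathway, at -0.50, -0.67 and -0.95 (adjusted p = 0.00848, 2.63e-05 and 0.000141). MMP7, matrilysin, measured 7.76, 7.72, 7.71 and 8.52 on the 4 control arrays and 10.99, 10.70 and 10.60 on the 3 arrays of the combined treatment, a rise of 2.83 ± 0.23 (SE), limma adjusted p = 5.83e-07. TFPI2, a secreted inhibitor of serine proteases, measured 8.41, 8.54, 8.35 and 8.29 on the 4 control arrays and 10.68, 10.35 and 10.54 on the 3 arrays of the combined treatment, a rise of 2.13 ± 0.13 (SE), limma adjusted p = 7.24e-08, beside 8.09 with TGFb1 alone. PLAUR, the urokinase receptor, rose by 1.30 ± 0.11 (adjusted p = 1.12e-06), while its ligand PLAU differed by -0.25 ± 0.13 (adjusted p = 0.139). HTRA1, a secreted serine protease, rose by 1.47 ± 0.19 (adjusted p = 3.6e-05) beside 2.16 ± 0.18. TIMP1, an inhibitor of metalloproteases, differed by 0.14 ± 0.10 (adjusted p = 0.302).

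Of the 12 largest falls 7 belonged to 1 list, that of ATF4 and the amino acid response (CTH, SLC7A11, BCAT1, PHGDH, ASNS, DDIT4 and NUPR1). Of its 39 tested members 33 were lower than control and 2 higher, and the list median was -1.56 against 0.04 over all genes. This list was drawn up with earlier results of these data known, so these counts are a description. With TGFb1 alone the median was -0.17, or 0.01 without TGFb1 replicate 4. The mean level of the list was 11.44 to 11.64 on control arrays, 10.71 to 11.65 with TGFb1 alone, where TGFb1 replicate 4 was the low array, and 9.83 to 9.90 under the combined treatment. No treated array overlapped a control.

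The largest differences in this list were those of CTH, SLC7A11 and BCAT1. CTH, which makes cysteine from cystathionine, measured 11.17, 10.96, 11.22 and 10.64 on the 4 control arrays and 6.41, 6.50 and 6.43 on the 3 arrays of the combined treatment, a difference of -4.55 ± 0.45 (SE), limma adjusted p = 3.98e-06, with all treated arrays under the brightness limit. SLC7A11, the cystine importer, measured 11.42, 11.36, 11.52 and 11.66 on the 4 control arrays and 7.11, 7.02 and 7.44 on the 3 arrays of the combined treatment, a difference of -4.30 ± 0.21 (SE), limma adjusted p = 1.23e-08. Neither was near these levels with TGFb1 alone, where the means were 10.34 ± 1.16 (SD, n = 4) and 10.94 ± 0.42 (SD, n = 4). BCAT1, the cytosolic branched-chain aminotransferase, measured 10.52, 10.07, 10.65 and 10.46 on the 4 control arrays and 6.12, 6.14 and 6.27 on the 3 arrays of the combined treatment, a difference of -4.25 ± 0.26 (SE), limma adjusted p = 7.76e-08. PHGDH, the entry enzyme of serine synthesis, measured 12.19, 11.82, 12.07 and 11.76 on the 4 control arrays and 8.11, 8.32 and 8.10 on the 3 arrays of the combined treatment, a difference of -3.78 ± 0.18 (SE), limma adjusted p = 1.14e-08. ASNS, asparagine synthetase, measured 13.87, 13.86, 13.95 and 13.67 on the 4 control arrays and 10.44, 10.44 and 10.24 on the 3 arrays of the combined treatment, a difference of -3.46 ± 0.22 (SE), limma adjusted p = 1.01e-07. For each of these 3 enzymes every treated array lay below every control. ATF4 itself measured 13.53, 13.53, 13.54 and 13.36 on the 4 control arrays and 12.45, 12.44 and 12.43 on the 3 arrays of the combined treatment, a smaller difference of -1.05 ± 0.11 (adjusted p = 6.62e-06). DDIT4, a stress-induced brake on the growth kinase mTORC1, differed by -3.45 ± 0.24 (adjusted p = 2.03e-07), and NUPR1, a small stress-induced nuclear protein, by -3.27 ± 0.24 (adjusted p = 3.02e-07). The 2 members that rose were the related factor ATF5, at 1.36 ± 0.0906 (adjusted p = 1.6e-07), and PPP1R15A, a phosphatase subunit that reverses translational arrest, at 0.72 ± 0.24 (adjusted p = 0.0249). The PPP1R15A call was lost without any 1 array of the combined treatment or without control replicate 4 (adjusted p 0.0526 to 0.0783). The 4 that did not pass were ATF3 at -0.10 ± 0.18 (adjusted p = 0.69) and CEBPB at 0.16 ± 0.25 (adjusted p = 0.645), both stress-induced bZIP factors, with SHMT2 at -0.04 and DDIT3 at 0.25.

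**Figure D3:**
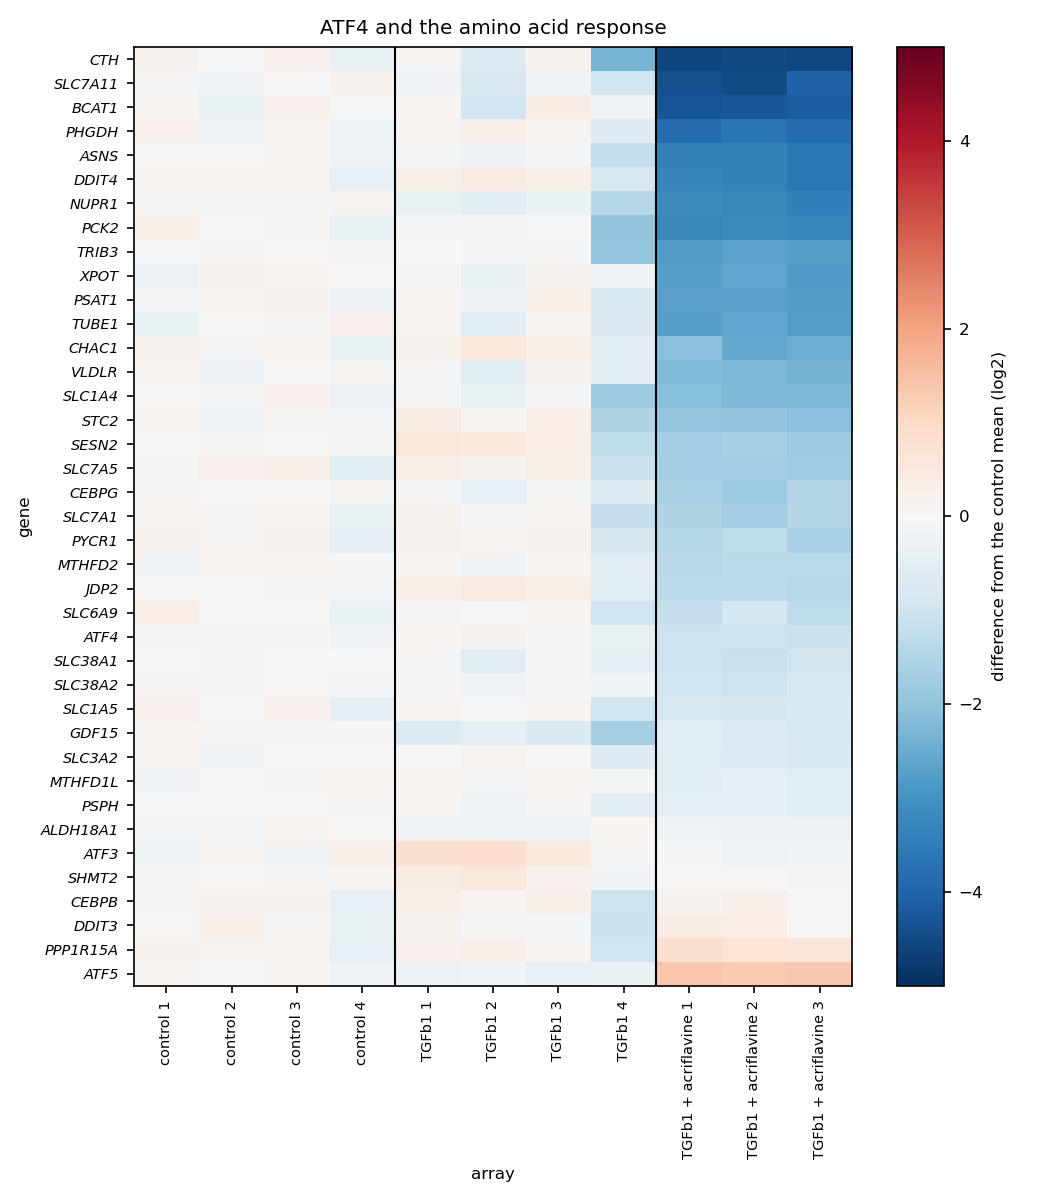
Difference of each array from the control mean (colour, log2) for the 39 tested genes of the ATF4 list (rows, ordered by the difference of TGFb1 plus acriflavine from control) on the control, TGFb1 and TGFb1 plus acriflavine arrays (columns). The 3 arrays of the combined treatment are low in 33 genes that passed, from CTH at -4.55 to ALDH18A1 at -0.25, and TGFb1 replicate 4 is on average lower than the other TGFb1 arrays.

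The binding element of ATF4 and its C/EBP partners, read here as TGATGNAA on either strand, was looked for in the 250 bases before the start of each gene in RefSeq's GRCh38.p14 promoters, of which 34 belonged to tested members of this list. It was in 5 of these 34 (14.7%), in 129 of 9000 promoters of tested genes (1.43%) and in 870 of all 27305 (3.19%). Of the 5, ASNS, BCAT1, CHAC1 and MTHFD1L were lower and ATF3 did not pass. The 5 windows, shown because they hold the element in 4 genes that fell and 1 that did not pass, are given 5′ to 3′ on the gene's strand with the element in capitals.
ASNS (chr7:97872449-97872496, - strand): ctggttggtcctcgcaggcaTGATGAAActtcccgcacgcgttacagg
BCAT1 (chr12:24949122-24949169, - strand): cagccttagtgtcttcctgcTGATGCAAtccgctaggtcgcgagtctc
CHAC1 (chr15:40953242-40953289, + strand): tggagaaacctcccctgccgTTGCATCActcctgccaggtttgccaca
MTHFD1L (chr6:150866337-150866384, + strand): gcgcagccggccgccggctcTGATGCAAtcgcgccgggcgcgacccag
ATF3 (chr1:212565196-212565243, + strand): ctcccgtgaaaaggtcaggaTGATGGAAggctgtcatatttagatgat
The differences from control of these genes were -3.46, -4.25, -2.36, -0.56 and -0.10 in that order. CHAC1 degrades glutathione and MTHFD1L is a mitochondrial folate enzyme. A match is a description of the sequence and does not show a site in use, and the other 29 members with a promoter had no match to these letters in this window.

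Most tested aminoacyl-tRNA synthetases, enzymes that load amino acids onto tRNAs, were lower as well. Of 19 tested 13 were lower and 3 higher, with a median of -0.77, while with TGFb1 alone the median was -0.12. The list mean was 11.55 to 11.63 on control arrays, 11.30 to 11.62 with TGFb1 alone and 10.88 to 10.89 under the combined treatment. EPRS1, the enzyme for glutamate and proline, measured 11.84, 11.68, 11.84 and 11.62 on the 4 control arrays and 9.64, 9.49 and 9.90 on the 3 arrays of the combined treatment, a difference of -2.07 ± 0.14 (SE), limma adjusted p = 1.66e-07. AARS1, WARS1 and GARS1, for alanine, tryptophan and glycine, differed by -1.72, -1.69 and -1.66 (adjusted p = 7.25e-07, 6.17e-06 and 3.89e-06). RARS1 and VARS1 did not pass, at 0.07 ± 0.0794 and 0.15 ± 0.19 (adjusted p = 0.486 and 0.551). HARS1, FARSA and KARS1, for histidine, phenylalanine and lysine, rose by 1.05, 0.63 and 0.46 (adjusted p = 0.00105, 0.000366 and 4.67e-05).

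Of 34 tested genes of the endoplasmic reticulum and unfolded protein response 8 were lower (23.5%, near the 21.6% of all genes). Rises were seen in 5 (14.7%, beside 26.1% of all genes), which were MANF, DERL2, EIF2S1, SEC61B and SELENOS, and in 12 without the replicates 4. The list median was 0.01. XBP1, a transcription factor of this response, differed by -1.41 ± 0.19 (adjusted p = 5.29e-05), and its target HERPUD1 by -1.39 ± 0.12 (adjusted p = 1.12e-06). SEL1L, an adaptor of protein disposal from this compartment, differed by -1.26 ± 0.15 (adjusted p = 2.06e-05). The chaperone HSP90B1 was at 0.00 ± 0.15 (adjusted p = 0.993).

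Most tested interferon-stimulated genes were lower with TGFb1 alone, which was not so under the combined treatment. With TGFb1 alone 33 of 44 tested members were lower and 0 higher, at a median of -0.78. With acriflavine added 14 were higher than control and 6 lower (31.8% and 13.6%, beside 26.1% and 21.6% of all genes), at a median of 0.12, and against TGFb1 alone 34 were higher and 2 lower (MX2 and IRF7). Control replicate 4 was the brightest control for this list, with a mean of 10.68 against 9.89 to 10.07 for the other controls and 10.28 to 10.39 under the combined treatment. Without it 18 were higher and 4 lower at a median of 0.33, without the replicates 4 of control and TGFb1 22 were higher, and with the _x_at probe sets left out 9 were higher and 5 lower. Without control replicate 2 the median was 0.0008, and without combined-treatment replicate 3 there were 3 lower. IFIT2, an interferon-induced protein that binds viral RNA, measured 11.43, 11.26, 11.41 and 11.70 on the 4 control arrays and 12.07, 11.79 and 12.21 on the 3 arrays of the combined treatment, a rise of 0.57 ± 0.16 (SE), limma adjusted p = 0.00866. TGFb1 alone gave 9.15 ± 0.25 (SD, n = 4), below both groups. HERC5, the ligase that attaches ISG15, rose by 1.18 ± 0.16 (adjusted p = 5.97e-05) beside -0.98 ± 0.15. GBP1, an interferon-induced GTPase, measured 7.14, 7.56, 7.22 and 9.31 on the 4 control arrays and 9.33, 9.08 and 9.19 on the 3 arrays of the combined treatment. The difference was 1.39 ± 0.39 (SE), limma adjusted p = 0.00953, although control replicate 4 lay within the treated range. IRF7, a transcription factor that amplifies interferon production, and IFI35 were lower than control, at -1.27 ± 0.17 and -0.96 ± 0.14 (adjusted p = 4.36e-05 and 7.6e-05). B2M, the light chain of HLA class I, differed by 0.09 ± 0.0616 (adjusted p = 0.23).

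The interferon-stimulated response element, read as GAAANNGAA on either strand, was in 21 of 36 promoters of tested members (58.3%), in 5.02% of 9000 promoters of tested genes and in 7.06% of all. It was present in 7 of 11 promoters of members that rose, 2 of 3 that fell and 12 of 22 that did not pass. The windows of GBP1, HERC5 and IFIT1, 3 members that rose, are given 5′ to 3′ on the gene's strand with 1 match in capitals, which reads as the reverse complement because it lies on the opposite strand.
GBP1 (chr1:89065306-89065354, - strand): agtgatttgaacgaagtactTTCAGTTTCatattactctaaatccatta
HERC5 (chr4:88457026-88457074, + strand): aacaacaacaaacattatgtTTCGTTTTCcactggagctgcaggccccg
IFIT1 (chr10:89392488-89392536, + strand): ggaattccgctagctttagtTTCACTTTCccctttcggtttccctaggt
IFIT1, of the same family as IFIT2, rose by 0.64 ± 0.24 (adjusted p = 0.0386) beside -1.60 ± 0.22 with TGFb1 alone, a call that was lost without any 1 of control replicates 1 to 3 or of the 3 arrays of the combined treatment (adjusted p 0.0711 to 0.112).

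Of 27 tested inflammatory genes of the NF-kB list 9 were higher and 6 lower than control (33.3% and 22.2%, near the 26.1% and 21.6% of all genes), with a median of 0.21, and 14 were higher without the replicates 4. With TGFb1 alone 12 were lower, or 19 with the replicate block. Control replicate 4 was the brightest control for this list too, with a mean of 10.32 against 9.83 to 9.86 for the other controls and 10.06 to 10.16 under the combined treatment. SERPINA3, an acute-phase protease inhibitor, measured 9.55, 9.29, 9.54 and 10.33 on the 4 control arrays and 12.33, 12.17 and 12.17 on the 3 arrays of the combined treatment, a rise of 2.55 ± 0.19 (SE), limma adjusted p = 4.01e-07. CXCL8, the neutrophil chemokine interleukin 8, measured 9.60, 10.00, 9.45 and 11.24 on the 4 control arrays and 11.90, 11.96 and 11.96 on the 3 arrays of the combined treatment, a rise of 1.87 ± 0.33 (SE), limma adjusted p = 0.000423. LCN2, the iron-binding lipocalin 2, measured 9.62, 8.95, 9.56 and 9.63 on the 4 control arrays and 7.31, 7.13 and 7.13 on the 3 arrays of the combined treatment and stayed below control, at -2.25 ± 0.22 (SE), limma adjusted p = 3.06e-06, beside -2.85 ± 0.20 with TGFb1 alone. NFKB1, the p105 precursor of an NF-kB subunit, measured 10.27, 10.48, 10.37 and 10.62 on the 4 control arrays and 8.77, 8.80 and 8.85 on the 3 arrays of the combined treatment, a difference of -1.63 ± 0.11 (SE), limma adjusted p = 2e-07 where TGFb1 alone gave 10.42 ± 0.21 (SD, n = 4). RELA, the other main subunit, differed by 0.20 ± 0.14 (adjusted p = 0.271).

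**Figure D4:**
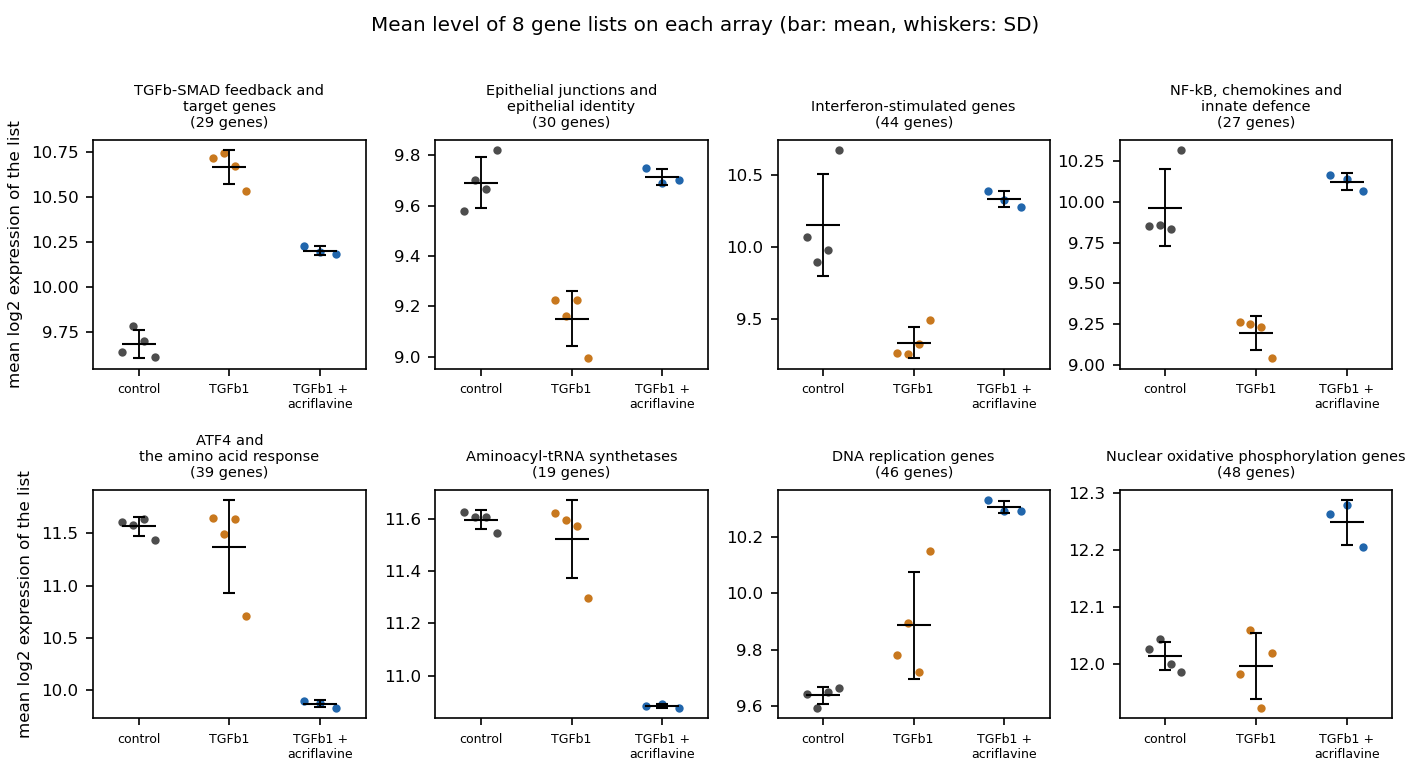
Mean log2 expression over the tested members of 8 gene lists (y axis, its range set per panel) on each array of the control (4), TGFb1 (4) and TGFb1 plus acriflavine (3) groups; points are arrays, the bar is the group mean and the whiskers the SD. The ATF4 and synthetase lists are lowest under the combined treatment (9.83 to 9.90 and 10.88 to 10.89), and the replication and oxidative phosphorylation lists highest (10.29 to 10.33 and 12.20 to 12.28). The epithelial, interferon and NF-kB lists lie within the control range, the interferon and NF-kB lists only through control replicate 4.

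Of 34 tested thiol and metal genes 9 were higher and 9 lower (26.5% each, near the 26.1% and 21.6% of all genes), with a median of -0.03. TST, the mitochondrial sulfurtransferase rhodanese, measured 8.62, 8.62, 8.41 and 8.90 on the 4 control arrays and 11.67, 11.75 and 11.56 on the 3 arrays of the combined treatment, a rise of 3.03 ± 0.16 (SE), limma adjusted p = 1.77e-08. GLRX, glutaredoxin, which reduces glutathione-bound proteins, measured 6.60, 7.09, 6.91 and 7.19 on the 4 control arrays and 9.96, 9.72 and 9.70 on the 3 arrays of the combined treatment, a rise of 2.84 ± 0.22 (SE), limma adjusted p = 4.69e-07. TGFb1 alone left both near control, at 8.64 ± 0.32 (SD, n = 4) and 6.72 ± 0.47 (SD, n = 4). The metallothionein MT1M, one of a family of close copies, rose by 1.71 ± 0.34 (adjusted p = 0.000922), while the brighter MT2A differed by 0.18 ± 0.13 (adjusted p = 0.293). HMOX1, haem oxygenase 1, measured 13.25, 12.92, 13.12 and 12.71 on the 4 control arrays and 10.66, 10.49 and 10.33 on the 3 arrays of the combined treatment, a difference of -2.50 ± 0.27 (SE), limma adjusted p = 7.73e-06. FTL, the ferritin light chain, differed by -0.12 ± 0.0591 (adjusted p = 0.107). Of its 8 probe sets 4 were called lower and 0 higher, and their mean gave -0.20 (adjusted p = 0.00877).

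Of 40 tested hypoxia-inducible genes and oxygen sensors 14 were higher and 12 lower (35.0% and 30.0%, beside 26.1% and 21.6% of all genes), with a median of -0.03. PFKFB4, a regulator of glycolysis, rose by 2.01 ± 0.26 (adjusted p = 3.25e-05), and EFNA1, a ligand of Eph receptors, by 1.40 ± 0.17 (adjusted p = 2.38e-05). HK2, hexokinase 2, measured 9.11, 8.76, 9.20 and 8.14 on the 4 control arrays and 7.17, 7.22 and 7.39 on the 3 arrays of the combined treatment, a difference of -1.54 ± 0.38 (SE), limma adjusted p = 0.00402. The other of 2 HK2 probe sets at the brightness limit was at -0.31 and was not called. MXI1, a MYC antagonist, differed by -1.34 ± 0.14 (adjusted p = 5.61e-06). VEGFA, the angiogenic growth factor, measured 11.84, 11.91, 12.02 and 12.03 on the 4 control arrays and 11.09, 11.21 and 11.15 on the 3 arrays of the combined treatment and was lower, at -0.80 ± 0.0961 (SE), limma adjusted p = 2.04e-05, where TGFb1 alone gave 12.19 ± 0.17 (SD, n = 4). The HIF1A subunit itself differed by -0.15 ± 0.11 (adjusted p = 0.298), GAPDH by 0.04 ± 0.0651 (adjusted p = 0.648) and ADM, adrenomedullin, by 0.29 ± 0.23 (adjusted p = 0.321).

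Nuclear genes of oxidative phosphorylation showed small rises. Of 48 tested 24 were higher and 2 lower than control, at a median of 0.24, whereas the median with TGFb1 alone was -0.03. Against TGFb1 alone 27 were higher. The list mean was 11.99 to 12.04 on control arrays, 11.92 to 12.06 with TGFb1 alone and 12.20 to 12.28 under the combined treatment, the last without overlap with the others. NDUFA9, a subunit of complex I, measured 10.00, 9.92, 9.83 and 10.08 on the 4 control arrays and 10.94, 10.90 and 11.03 on the 3 arrays of the combined treatment, a rise of 1.00 ± 0.13 (SE), limma adjusted p = 4.99e-05. NDUFS3 and NDUFA8, also of complex I, rose by 0.68 ± 0.13 and 0.61 ± 0.13 (adjusted p = 0.000727 and 0.002). The 2 that fell were NDUFA5 of complex I, at -0.68 ± 0.14 (adjusted p = 0.00116), and SDHD of complex II, at -0.22 ± 0.073 (adjusted p = 0.0238). The SDHD call was lost without control replicate 1 or 3 or combined-treatment replicate 2 (adjusted p 0.0521 to 0.112). The electron carrier CYCS differed by -0.02 ± 0.11 (adjusted p = 0.902), although its 3 probe sets ranged from -0.68 to -0.02 and 1 of them was called lower.

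Most tested DNA replication genes rose. Of 46 tested 40 were higher and 1 lower than control, with a median of 0.67, and against TGFb1 alone 30 were higher and 2 lower (POLA1 and LIG1). TGFb1 alone had 16 higher and 0 lower, at a median of 0.24, a count that was 7 to 9 without single arrays (control replicates 2, 3 or 4 or TGFb1 replicates 1 or 2). The list mean was 9.59 to 9.67 on control arrays, 9.72 to 10.15 with TGFb1 alone and 10.29 to 10.33 under the combined treatment. GINS4, a part of the replicative helicase, measured 7.02, 7.12, 7.27 and 7.27 on the 4 control arrays and 8.58, 8.56 and 8.44 on the 3 arrays of the combined treatment, a rise of 1.35 ± 0.15 (SE), limma adjusted p = 1.13e-05. PRIM1, the primase subunit that starts new strands, measured 9.37, 9.21, 9.31 and 9.27 on the 4 control arrays and 10.60, 10.68 and 10.62 on the 3 arrays of the combined treatment, a rise of 1.34 ± 0.15 (SE), limma adjusted p = 8.62e-06. CCNE1, cyclin E1, and CDC6, which loads the helicase, rose by 1.34 ± 0.13 and 1.32 ± 0.0993 (adjusted p = 3.63e-06 and 3.44e-07). POLA1, the catalytic subunit of DNA polymerase alpha, was the 1 lower member, at -0.57 ± 0.12 (adjusted p = 0.00172). LIG1 and RFC5 did not pass, at 0.04 ± 0.0957 and -0.06 ± 0.17 (adjusted p = 0.754 and 0.802), though the mean of the RFC5 probe sets gave 0.56 (adjusted p = 0.00817).

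In the mitosis list 16 of 44 tested genes were higher and 1 lower (36.4% and 2.3%, beside 26.1% and 21.6% of all genes), at a median of 0.32. The lower gene was CDC25B (-0.43 ± 0.0844, adjusted p = 0.000912). The count of rises was 9, 10 and 10 without combined-treatment replicate 1, 2 or 3 and 26 without the replicates 4. Over all tested genes the counts of rises in these settings were 2291, 2352, 2464 and 3548, beside 2839 in the main fit. Without any 1 array of the combined treatment the share of rises in the list was thus near that of all genes. CCNB1, cyclin B1, measured 10.56, 10.85, 10.70 and 10.93 on the 4 control arrays and 11.75, 11.86 and 11.83 on the 3 arrays of the combined treatment, a rise of 1.05 ± 0.24 (SE), limma adjusted p = 0.00253. FOXM1, a transcription factor of mitotic genes, rose by 1.02 ± 0.11 (adjusted p = 5.61e-06). The proliferation marker MKI67 differed by 0.67 ± 0.27 (adjusted p = 0.0584, and 0.74 with adjusted p = 0.000677 without the replicates 4), and UBE2C, a ligase component of mitotic exit, by -0.02 ± 0.0824 (adjusted p = 0.879). The list mean was 9.84 to 10.01 on control arrays, 9.96 to 10.73 with TGFb1 alone and 10.30 to 10.36 under the combined treatment.

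Regulators of the G1 phase included cyclins that moved apart. CCND2, cyclin D2, measured 10.72, 10.05, 10.81 and 9.66 on the 4 control arrays and 6.44, 5.88 and 6.71 on the 3 arrays of the combined treatment, a difference of -3.97 ± 0.48 (SE), limma adjusted p = 2.2e-05. CCND3, cyclin D3, measured 9.22, 9.26, 9.27 and 9.20 on the 4 control arrays and 10.97, 10.91 and 10.89 on the 3 arrays of the combined treatment, a rise of 1.68 ± 0.10 (SE), limma adjusted p = 8.42e-08. These 2 D-type cyclins moved in opposite directions, and CDK6, their kinase partner, was lower, at -1.44 ± 0.19 (adjusted p = 4.24e-05). CDKN1A, the inhibitor p21, rose by 0.97 ± 0.15 (adjusted p = 0.000156) beside 0.72 ± 0.14 with TGFb1 alone. MYC differed by -0.30 ± 0.20 (adjusted p = 0.227), and by -0.50 (adjusted p = 0.0124) without control replicate 4. The survival proteins MCL1 and BIRC2 differed by 0.00 ± 0.11 and 0.00 ± 0.11 (adjusted p = 0.985 and 0.992), and HRK, a pro-apoptotic BH3 protein, was lower, at -1.13 ± 0.31 (adjusted p = 0.00783).

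In the DNA damage and p53 list 13 of 37 were higher and 5 lower (35.1% and 13.5%, beside 26.1% and 21.6% of all genes), with a median of 0.17. Without combined-treatment replicate 1 or 2 or control replicate 4, 3 were lower. TOP1, the topoisomerase that relaxes DNA ahead of polymerases, measured 11.02, 11.30, 11.35 and 11.49 on the 4 control arrays and 12.39, 12.35 and 12.40 on the 3 arrays of the combined treatment, a rise of 1.09 ± 0.14 (SE), limma adjusted p = 3.2e-05. The linker histone H1-2 rose by 1.22 ± 0.18 (adjusted p = 0.000116). The lower members were TP53INP1, MDM2, TNFRSF10B, RRM2B and ATM. TP53INP1, a p53 target, was at -1.10 ± 0.13 (adjusted p = 1.46e-05), and MDM2, the ligase that degrades p53, at -0.83 ± 0.14 (adjusted p = 0.000331). The other of 2 TP53INP1 probe sets at the brightness limit was at 0.07 and was not called. ATM, the kinase that responds to double-strand breaks, was at -0.93 ± 0.31 (adjusted p = 0.0243), a call lost without control replicate 4 or combined-treatment replicate 1 or 2 (adjusted p 0.0676 to 0.0768). H2BC11, a core histone gene outside the lists whose family members can share probes, was among the 12 largest rises: it measured 7.07, 7.12, 7.29 and 7.34 on the 4 control arrays and 10.05, 9.91 and 9.88 on the 3 arrays of the combined treatment, a rise of 2.74 ± 0.12 (SE), limma adjusted p = 7.27e-09, beside 7.26 with TGFb1 alone.

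Counts in the other groups are to be read against the 26.1% higher and 21.6% lower of all genes. Those under an alternative are to be read against its own all-gene counts. Sterol and fatty acid genes were higher in 10 of 27 and lower in 7 (median 0.21), among them FDPS, which makes farnesyl diphosphate, at 1.25 ± 0.32 (adjusted p = 0.00512) and FADS2, a fatty acid desaturase, at -0.94 ± 0.15 (adjusted p = 0.000192). Lysosome genes were higher in 3 of 30 (SMPD1, ATP6V0D1 and ATP6V1H; 5 without the replicates 4) and lower in 10 (median -0.16), with the peptidase TPP1 at -1.40 ± 0.0857 (adjusted p = 7.76e-08) and the proton pump subunit ATP6V0D1 at 0.89 ± 0.11 (adjusted p = 2.97e-05). Ribosome biogenesis genes were higher in 7 of 37 (18.9%) and lower in 9 (24.3%; 5 genes without combined-treatment replicate 2), with a median of 0.01, near those of all genes. In that list RRN3, an initiation factor of RNA polymerase I, was at -0.84 ± 0.10 (adjusted p = 2.83e-05), and the nucleolar proteins FBL and NCL did not pass, at -0.03 ± 0.0595 and 0.12 ± 0.0787 (adjusted p = 0.707 and 0.219). Heat shock genes were higher in 7 of 22 (4 without combined-treatment replicate 3, 12 without the replicates 4) and lower in 4, HSPA9, HSPE1, DNAJB6 and CHORDC1 (median 0.25), with the small chaperone HSPB1 at 1.29 ± 0.14 (adjusted p = 7.73e-06) and CHORDC1, a partner of HSP90, at -1.35 ± 0.18 (adjusted p = 4.14e-05). Immediate early genes were higher in 6 of 25 and lower in 3, ETV5, PHLDA1 and KLF6, or 8 without the replicates 4 (median 0.06), with IER5 at 1.43 ± 0.10 (adjusted p = 2.77e-07) and ETV4, an ETS factor, at 1.39 ± 0.17 (adjusted p = 2.72e-05).

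The other genes among the 12 largest rises and falls lay outside the functional lists. IGFBP4, a carrier of insulin-like growth factors, measured 9.04, 9.15, 9.03 and 8.09 on the 4 control arrays and 11.91, 11.86 and 11.94 on the 3 arrays of the combined treatment, a rise of 3.07 ± 0.27 (SE), limma adjusted p = 1.4e-06. KRTAP2-3, a keratin-associated protein gene whose near-identical copies could share its probes, rose by 3.05 ± 0.29 (adjusted p = 2.78e-06). PRSS3, mesotrypsin, measured 5.76, 5.53, 5.52 and 5.40 on the 4 control arrays and 8.41, 8.49 and 8.43 on the 3 arrays of the combined treatment, a rise of 2.89 ± 0.13 (SE), limma adjusted p = 7.27e-09, and TGFb1 alone gave 6.45. SPHK1, which makes sphingosine 1-phosphate, rose by 2.63 ± 0.21 (adjusted p = 5.54e-07) beside 1.61 ± 0.19. Among the falls, ULBP1, a stress ligand for the NKG2D receptor of lymphocytes, measured 9.03, 9.24, 9.05 and 9.11 on the 4 control arrays and 4.94, 5.60 and 5.32 on the 3 arrays of the combined treatment, a difference of -3.82 ± 0.30 (SE), limma adjusted p = 4.99e-07. ANK2, a membrane-skeleton adaptor, and PRDM16, a transcriptional regulator, differed by -3.72 ± 0.26 and -3.54 ± 0.18 (adjusted p = 2.43e-07 and 1.28e-08). The other of 2 PRDM16 probe sets at the brightness limit was at -0.06 and was not called. S100P, a calcium-binding protein of ductal carcinoma, measured 11.68, 10.51, 11.42 and 10.16 on the 4 control arrays and 7.67, 7.46 and 7.65 on the 3 arrays of the combined treatment, a difference of -3.35 ± 0.49 (SE), limma adjusted p = 0.000103, and TGFb1 alone gave 9.05 ± 0.97 (SD, n = 4).

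Genes that changed at least 2-fold under the combined treatment with the smallest difference between TGFb1 alone and control were also taken as a description. The rises were RAB3B, INCA1, TST, DKK3, TSEN54 and RBM8A, from 1.06 for RBM8A, a core protein of the exon junction complex, to 3.03 for TST. Of 3 RBM8A probe sets at the brightness limit 1 was called higher, and the lowest was at -0.26. DKK3, a secreted Dickkopf family protein, measured 11.36, 11.43, 11.33 and 12.03 on the 4 control arrays and 12.68, 12.59 and 12.64 on the 3 arrays of the combined treatment. The falls were AGO4, BAG1, CHORDC1, COL18A1, ATF4 and ANKRD11, from -1.42 for BAG1, a co-chaperone of HSP70, to -1.0 for ANKRD11. BAG1 measured 10.02, 9.91, 10.03 and 10.01 on the 4 control arrays and 8.69, 8.46 and 8.57 on the 3 arrays of the combined treatment, with every treated array below every control.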

How the data were processed

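RNA of 14 PANC-1 samples (200 ng each) was hybridised to Affymetrix 3' expression arrays, 1 array a sample. The deposited values are log2 intensities of 49193 probe sets, made by the authors with RMA in affy 1.44.0, per the submitters' processing notes. RMA subtracts background, equalises the arrays' distributions and combines probes, so differences are relative within a set of arrays and low values are compressed. As arrays were made equal in this way, no depth can be given, and the number of arrays limits the precision. Probe sets were named from the platform annotation (44898 with 1 gene, 1825 with several and 2470 with none), symbols were matched to RefSeq, and the brightest probe set stood for each of 18129 genes. The dimmest 40% of genes (mean under 6.89) were left out, and 10877 were tested.

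Differences came from limma 3.58.1 in R 4.3.3, with 1 mean for each of the 4 groups over all 14 arrays (the 3 valproate arrays share in the estimate of the spread), and p-values were adjusted over all tested genes by Benjamini-Hochberg. The fit was tested on simulated data. Replicate numbers were checked for pairing through the correlation of same-numbered arrays' deviations from their group means. Between TGFb1 and control these were 0.387, 0.359, 0.543 and 0.705. The group means include replicate 4, so an offset shared by the replicates 4 alone can make the other values positive. Pairing of replicates 1 to 3 was thus not shown, and the block is given for those groups as an alternative. Between the combined treatment and control they were -0.0751, 0.103 and 0.266, and between the combined treatment and TGFb1 alone -0.000472, 0.398 and 0.368. The values with the combined treatment rest on replicates 1 to 3 and those of TGFb1 and control on replicates 1 to 4, so they are not alike. They cannot settle whether the numbers pair the combined treatment with another group, and the main fit used no pairing.

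The members, picked by their labels, and the gene lists were chosen with earlier results of these data known. The rule for naming genes took the 12 called genes that rose most and the 12 that fell most among those whose groups did not overlap, from each list up to 4 called members with the largest differences and the 2 brightest that did not pass, a preset list, and the 6 rises and 6 falls of at least 2-fold with the smallest difference in another contrast. The following were named after their values were seen: ACTG1, ADAM17, ALDH18A1, ATF5, ATP6V1H, BAMBI, CDC25B, CHAC1, CTNNA1, DDIT3, DERL2, DNAJB6, DSC2, DSG2, EIF2S1, ELF3, ETV5, FARSA, HARS1, HSPE1, IFIT1, ITGAV, ITGB1, ITGB3, KARS1, KLF6, LIF, MANF, MDM2, MMP24, MTHFD1L, MX2, OCLN, P4HA3, PHLDA1, PLAUR, POLA1, PPP1R15A, PXN, RRM2B, SDHD, SEC61B, SELENOS, SHMT2, SKI, SMPD1, SPARC, SPOCK1, TFPI, TGIF1, TJP1, TNFRSF10B, TSC22D1 and WNT7B. Motifs were sought on both strands of RefSeq promoters of GRCh38.p14. Alternatives covered the brightness limit, probe set choice, centring and quantile normalisation, limma with an intensity trend, the 2 groups alone, the replicate block, a stricter threshold and leaving out arrays.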

Additional observations from a re-analysis of the deposited data

Results flagged for a closer look

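Among the genes whose values are given, 57 of 358 looked-at sets of 4 arrays (control or TGFb1 alone) had 1 array standing apart from the other 3, where chance gives about 1 in 20. Most were on a replicate 4. On control replicate 4 the value stood above the other controls for DKK3 (12.03), IFIT1 (10.81), MMP7 (8.52), PLAU (13.69) and TGFBR3 (8.66). It stood below them for ADM (12.80), ATF4 (13.36), COL1A1 (7.85), DDIT4 (12.31), FSCN1 (10.43), IGFBP4 (8.09), ITGA5 (8.88), MYC (11.62), TGFB1 (7.73) and WNT7B (8.04).

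On TGFb1 replicate 4 the value was high for DKK3 (11.80), IER5 (10.14), IFIT1 (9.31), MKI67 (10.82), PRIM1 (10.16), RFC5 (10.98), TGFBR3 (7.0), THBS1 (12.22) and TOP1 (11.48). It was low for 24 genes. Those of the amino acid and stress lists were AARS1 (10.25), CEBPB (11.25), DDIT4 (11.91), HERPUD1 (10.59), NUPR1 (11.72), PHGDH (11.33), PPP1R15A (9.03), WARS1 (10.46) and XBP1 (10.79). The others were ADM (12.02), COL1A1 (11.24), ETV4 (8.41), HMOX1 (12.34), HSPB1 (12.79), IFI35 (9.97), IGFBP4 (7.90), IRF7 (9.17), KRTAP2-3 (6.38), MT2A (14.06), MYC (12.09), NOG (11.07), SPINT1 (8.27), TGIF1 (11.46) and ULBP1 (7.47).

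TGFb1 replicate 2 was high for PRSS3 (6.80) and low for CDK6 (10.58), MDM2 (7.81), SDHD (11.96) and TP53INP1 (8.75). Control replicate 2 was high for UBE2C (13.46) and low for CDC25B (11.69), HERPUD1 (10.80) and LCN2 (8.95). All values are log2 intensities. Groups of 3 arrays, which include the combined treatment, were not looked at in this way.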

How the results depend on the processing

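The counts of 2839 higher and 2354 lower genes stayed within 1.5 times of these values under every alternative tried. With the dimmest 60% of genes left out, fewer genes were tested, and 223 were higher and 257 lower by at least 2-fold, against 382 and 410. Without 1 array of control or of the combined treatment, 2291 to 2798 genes were higher and 1885 to 2246 lower, and 4237 to 5044 passed in all. Without both replicates 4, 6420 passed. A fit of the 2 groups alone gave 3236 higher and 2745 lower, 5981 in all. With the replicate block 3350 were higher and 2689 lower, 6039 in all, of which 5057 were shared with the fit without it, and with the block over replicates 1 to 3 of the 2 groups alone 7015 passed, 5165 of them shared. Whether the numbers pair these groups was not settled, so this block is given here only. Median centring moved the all-gene median from 0.0397 to 0.0641 and the share of higher calls from 54.7% to 57.5%.

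Of 260 genes followed one by one, 192 were called. None of these reversed, 170 kept their call under every alternative run for them, 22 lost it under at least 1, and 30 uncalled genes gained one. Values could be had for 208 of the 260 with the dimmest 60% left out, 243 without the _x_at probe sets and 246 with the mean of the probe sets, and for all under the others. Without the _x_at probe sets the list median turned to -0.01 for DNA damage genes and was -0.15 for hypoxia-inducible genes. Beside those described above, calls were lost without single arrays for ALDH18A1, BAMBI, DNAJB6, MANF, PHLDA1, RRM2B and TNFRSF10B, and with the mean of the probe sets for EIF2S1, MMP24 and PXN. Other called differences of named genes from control that were over 1.5 times smaller with that mean were those of ARNT2 (-0.62), DKK3 (0.73), FYCO1 (-0.54), INAVA (0.74), RBM8A (0.31), NDUFS3 (0.33), NDUFA8 (0.36), SEL1L (-0.72), TP53INP1 (-0.52), WNT7B (-0.80), SIM2 (1.01), SELENOS (0.57), CTNNA1 (-0.20) and ATM (-0.57). Against TGFb1 alone the sign turned for DNAJB6 with the mean of its probe sets, at 0.0383; the cause was not tested.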
